A study of Mus musculus with 12 samples.

Results

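Perivascular border macrophage genes were examined in RNA-seq of mouse brain after intracerebral hemorrhage (ICH). The 8 genes, *Mrc1*, *Lyve1*, *Pf4*, *Cbr2*, *Ms4a7*, *Folr2*, *Siglec1* and *Stab1*, were the entries of the count table whose symbol equalled a name on a fixed list. All 8 were found among the 54833 genes listed, and all 8 were among the 21495 genes with enough counts to be tested. The mice were male wild-type C57BL/6, either young (8 to 10 weeks) or aged (20 to 22 months). In the ICH groups type IV collagenase, an enzyme that breaks down vessel walls, was injected into the caudate putamen, and the sham groups received saline in its place. Tissue around the hematoma, or the matching tissue of sham mice, was taken from the injected side after perfusion with saline, 24 h after surgery. Both ages after sham surgery and both ages after ICH gave 4 groups of 3 samples. Tissue of several mice was pooled for each sample, and the errors given below are those between pools.

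Border macrophages are long-lived macrophages that lie outside the brain parenchyma, in the perivascular spaces, the meninges and the choroid plexus. They sample fluid that passes along vessels and take up proteins, lipoproteins and debris through scavenger receptors, and the genes above set them apart from microglia in healthy brain. None of the genes belongs to these cells alone. *Stab1* and *Lyve1* are also known from sinusoidal and lymphatic endothelium, *Pf4* from platelets and megakaryocytes, and *Siglec1*, *Mrc1* and *Ms4a7* from macrophages that mature from blood monocytes. In bulk tissue, fewer cells of a type and less RNA per cell cannot be told apart.

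Reads counted on genes totalled 28410896 to 37785160 per sample. Levels are given as CPM, counts scaled to a common library size, after TMM normalization. A gene was called upregulated at a fold change (FC) over 1.5 and downregulated at an FC under 0.67, each with an unadjusted *P* under 0.05 in edgeR's quasi-likelihood test over all 12 samples. These FC and *P* limits are those of the study, which applied them to another test, and the *P* values after Benjamini-Hochberg correction over the whole table are printed as adjusted *P*. Markers of striatal neurons, such as *Drd1* and *Ppp1r1b*, were present in every library, with a summed level of 1064 to 2154 CPM in sham and 249 to 1497 CPM in ICH samples. Choroid plexus genes set 3 libraries apart. The 8 genes of that list summed to 4110 CPM in young ICH replicate 3, 1568 CPM in aged ICH replicate 1 and 1992 CPM in aged ICH replicate 2, against 13 to 496 CPM in the other libraries. Since the choroid plexus holds border macrophages of its own, each call was recomputed without these 3 libraries, an alternative chosen after the data were seen. It leaves a single aged ICH sample, which is then assumed to vary like the samples of the other groups.

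In young mice, 5 of the 8 genes were upregulated after ICH and none was downregulated, where 8.66% of all genes tested were called upregulated and 3.49% downregulated. The 5 were *Stab1*, *Pf4*, *Lyve1*, *Mrc1* and *Ms4a7*, and all but *Ms4a7* also had an adjusted *P* under 0.05, a limit passed upward by 9.89% of all genes. In aged mice 5 of 8 were upregulated and none downregulated, against 7.24% of all genes called upregulated and 2.82% downregulated. These were *Stab1*, *Pf4*, *Lyve1*, *Mrc1* and *Siglec1*, and 3 of them (*Stab1*, *Pf4* and *Lyve1*) passed after adjustment, against 7% of all genes. The median log2FC of the 8 genes was 1.24 in young and 0.97 in aged mice, while that of all genes tested was 0.02 and 0.00. All 8 point estimates were above 0 at both ages. Every ICH sample was above every sham sample for 4 of the 8 genes in young mice, as for 18.5% of all genes, and for 5 of the 8 in aged mice, as for 17.8% of all genes.

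**Figure D1:**
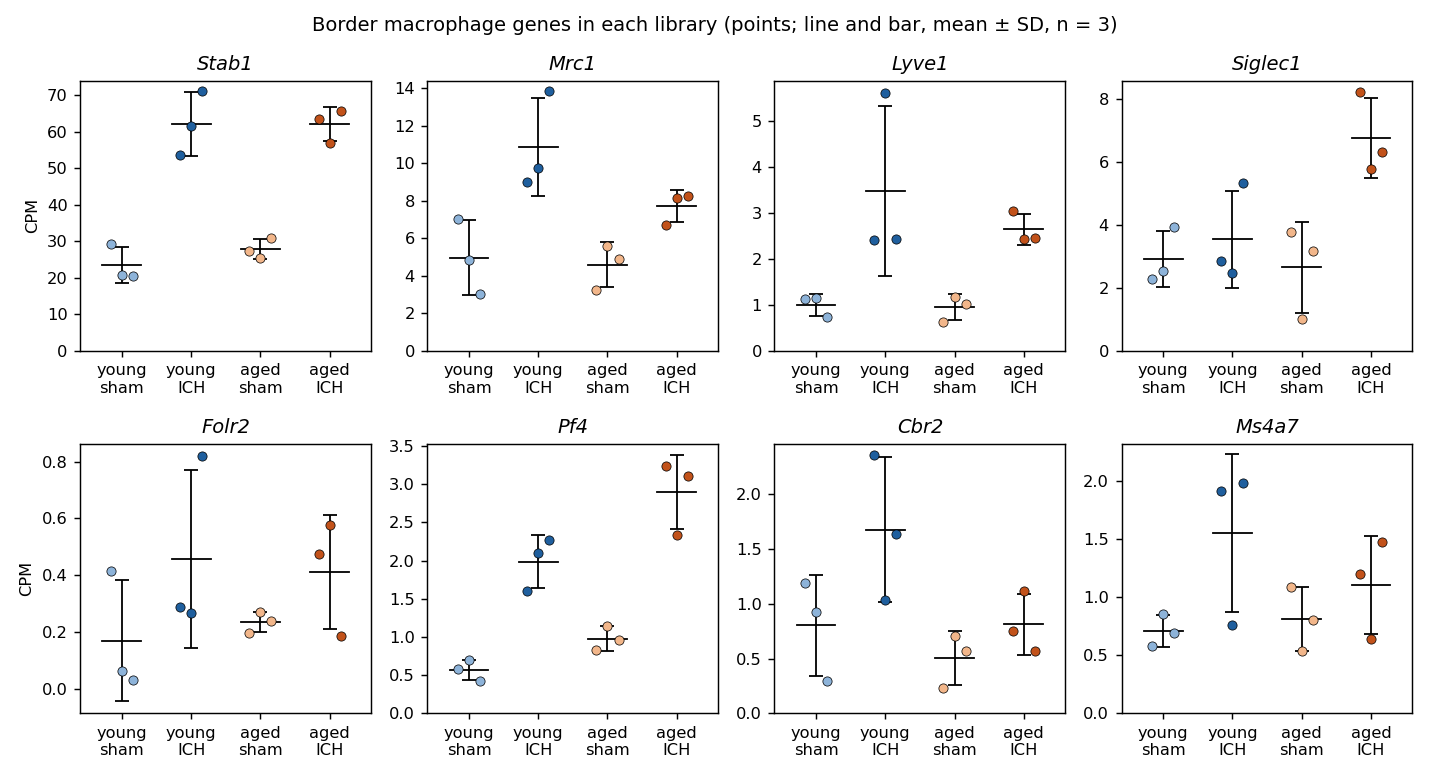
CPM of each of the 8 genes in the 12 libraries, by group; points are samples, the horizontal line is the group mean and the bar is ± SD (n = 3), and each panel has its own linear axis. For *Stab1*, *Pf4*, *Lyve1* and *Mrc1* every ICH sample lies above every sham sample of the same age, whereas *Siglec1* separates sham from ICH in aged mice and overlaps in young mice; the *Folr2* bar of the young sham group reaches below 0 because 1 sample (0.415 CPM) lies far above the other 2.

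Among the uptake receptors, *Stab1* (stabilin-1, a scavenger receptor for modified lipoproteins and matrix fragments; chr14:31139013-31168641, minus strand, GRCm38) had the highest level. It measured 29.3, 20.7 and 20.5 CPM in young sham samples and 53.6, 61.7 and 71.3 CPM in young ICH samples. Aged sham samples held 27.4, 25.3 and 30.9 CPM and aged ICH samples 63.6, 56.9 and 65.8 CPM. Every ICH sample was thus above every sham sample at either age. The log2FC was 1.40 ± 0.15 (SE; FC 2.64, adjusted *P* = 0.000742) in young and 1.15 ± 0.15 (FC 2.23, adjusted *P* = 0.00316) in aged mice. Between the ICH groups of both ages the log2FC was 0.00 with a 95% interval of -0.31 to 0.31. *Nt5dc2*, a neighbor on the opposite strand, shares 1.09% of the exon bases of *Stab1*.

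*Mrc1* encodes the mannose receptor CD206, which binds and internalizes glycoproteins that end in mannose (chr2:14229392-14332057, plus strand). Its levels were 7.05, 4.82 and 3.04 CPM in young sham and 8.97, 9.75 and 13.8 CPM in young ICH samples. In aged mice they were 3.24, 5.597 and 4.91 CPM after sham surgery and 6.72, 8.13 and 8.26 CPM after ICH. The groups did not overlap at either age. *Mrc1* was upregulated by a log2FC of 1.12 ± 0.29 in young mice (FC 2.18, adjusted *P* = 0.0197) and of 0.75 ± 0.29 in aged mice (FC 1.68, adjusted *P* = 0.111). The call in aged mice was lost without aged ICH replicate 2 (log2FC 0.71), aged ICH replicate 3 (0.69) or aged sham replicate 1 (0.55), and without the choroid-rich libraries (0.86, adjusted *P* = 0.258). All 3 aged ICH samples were below all 3 young ICH samples, yet the difference between those groups did not pass (log2FC -0.49, adjusted *P* = 0.618).

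*Lyve1*, a hyaluronan receptor first described on lymphatic vessels and carried by a subset of border macrophages (chr7:110850607-110863239, minus strand), was low in sham tissue. Young sham samples held 1.13, 1.14 and 0.726 CPM and young ICH samples 2.41, 5.63 and 2.43 CPM. The aged groups measured 0.629, 1.18 and 1.02 CPM in sham and 3.04, 2.44 and 2.45 CPM in ICH. ICH samples were again above sham samples at both ages, and young ICH replicate 2 stood above the other 2 of its group. *Lyve1* had a log2FC of 1.79 ± 0.36 in young (FC 3.46, adjusted *P* = 0.00631) and 1.49 ± 0.36 in aged mice (FC 2.80, adjusted *P* = 0.0217). Leaving out any single library kept both calls, with log2FC between 1.27 and 1.997 in young and between 1.27 and 1.67 in aged mice. The highest adjusted *P* in these fits was 0.028 in young and 0.0866 in aged mice.

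*Siglec1* (sialoadhesin, CD169, a receptor that binds sialic acid on other cells and on enveloped particles; chr2:131069220-131086765, minus strand) separated sham from ICH samples in aged mice. Young sham samples measured 2.29, 2.54 and 3.93 CPM and young ICH samples 2.84, 2.46 and 5.33 CPM, so that both groups overlapped. Aged sham samples were at 3.77, 1.01 and 3.17 CPM, and aged ICH samples at 8.22, 5.79 and 6.32 CPM, above every other sample of the series. The log2FC was 0.28 ± 0.42 in young mice (95% interval -0.63 to 1.197, adjusted *P* = 0.68) and 1.35 ± 0.42 in aged mice (FC 2.55, adjusted *P* = 0.0541). The difference between these responses, tested as the interaction of age and ICH, did not pass (log2 difference 1.07 ± 0.59, adjusted *P* = 1). It passed the unadjusted criterion without aged sham replicate 1 (1.40) or young ICH replicate 3 (1.48).

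*Folr2*, the folate receptor of macrophages (chr7:101839988-101857194, minus strand), had 1 to 26 counts per sample. Its levels were 0.415, 0.0634 and 0.033 CPM in young sham and 0.290, 0.266 and 0.819 CPM in young ICH samples. Aged sham samples held 0.199, 0.270 and 0.240 CPM and aged ICH samples 0.474, 0.576 and 0.189 CPM. The groups overlapped at both ages, and *Folr2* passed in neither (log2FC 1.34 ± 0.73, adjusted *P* = 0.224, and 0.79 ± 0.72, adjusted *P* = 0.505). The young sham mean rested on replicate 1, and without that sample the young log2FC was 3.14 with an adjusted *P* of 0.0287. The sham samples left in that fit had 1 or 2 counts in young and 6 to 8 in aged mice. *Folr2* thus had enough counts to be tested there only through its ICH samples. The coefficient of variation between pools was 124% in young sham, 68.2% in young ICH and 48.6% in aged ICH samples, against 40.8, 26.1 and 27.4% from counting alone, and in aged sham samples it was 15.1% against 36.9%. In the annotation, 63.1% of the exon bases of *Folr2* are shared with the antisense gene *Gm10602*, whose reads cannot be separated from those of *Folr2* if counting ignored the strand. *Gm10602* averaged 1.14 to 1.25 CPM in the 4 groups.

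*Ms4a7* encodes a membrane protein of the MS4A family that marks border macrophages and monocyte-derived macrophages (chr19:11321039-11336146, minus strand). Young sham samples were at 0.580, 0.857 and 0.693 CPM and young ICH samples at 1.92, 0.766 and 1.99 CPM. In aged mice sham samples were at 1.09, 0.540 and 0.809 CPM and ICH samples at 1.199, 0.643 and 1.48 CPM. In each ICH group 1 sample lay within the range of its sham group and the other 2 above it. *Ms4a7* was called upregulated in young mice (log2FC 1.14 ± 0.41, adjusted *P* = 0.0716) and not in aged mice (0.45 ± 0.41, adjusted *P* = 0.513). The young call was lost without young ICH replicate 1 (0.96), young ICH replicate 3 (0.93) or young sham replicate 1 (1.005), and without the choroid-rich libraries (0.93, adjusted *P* = 0.194). The interaction was -0.69 ± 0.58 (adjusted *P* = 1).

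*Pf4* encodes platelet factor 4 (CXCL4), a secreted chemokine stored in platelets and also made by border macrophages (chr5:90772435-90773383, plus strand). It measured 0.580, 0.698 and 0.429 CPM in young sham and 1.60, 2.10 and 2.27 CPM in young ICH samples. Aged sham samples held 0.828, 1.15 and 0.958 CPM and aged ICH samples 3.23, 2.34 and 3.11 CPM. These 4 groups did not overlap at all, in the order young sham, aged sham, young ICH and aged ICH. The log2FC after ICH was 1.79 ± 0.24 in young (FC 3.47, adjusted *P* = 0.00166) and 1.56 ± 0.23 in aged mice (FC 2.96, adjusted *P* = 0.00441), and both calls remained when any single library was left out.

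*Cbr2*, a carbonyl reductase that reduces aldehydes and ketones (chr11:120729489-120732114, minus strand), was the enzyme of the list. Levels were 1.19, 0.920 and 0.297 CPM in young sham and 2.35, 1.03 and 1.64 CPM in young ICH samples. In aged samples they were 0.232, 0.708 and 0.569 CPM after sham surgery and 0.753, 1.12 and 0.566 CPM after ICH. Groups overlapped at both ages, and *Cbr2* did not pass in young (log2FC 1.05 ± 0.48, adjusted *P* = 0.151) or in aged mice (0.68 ± 0.53, adjusted *P* = 0.435). The young comparison stood at the limit and passed when aged ICH replicate 2 (1.05), aged sham replicate 1 (1.05), young ICH replicate 2 (1.30) or young sham replicate 1 (1.45) was left out.

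**Figure D2:**
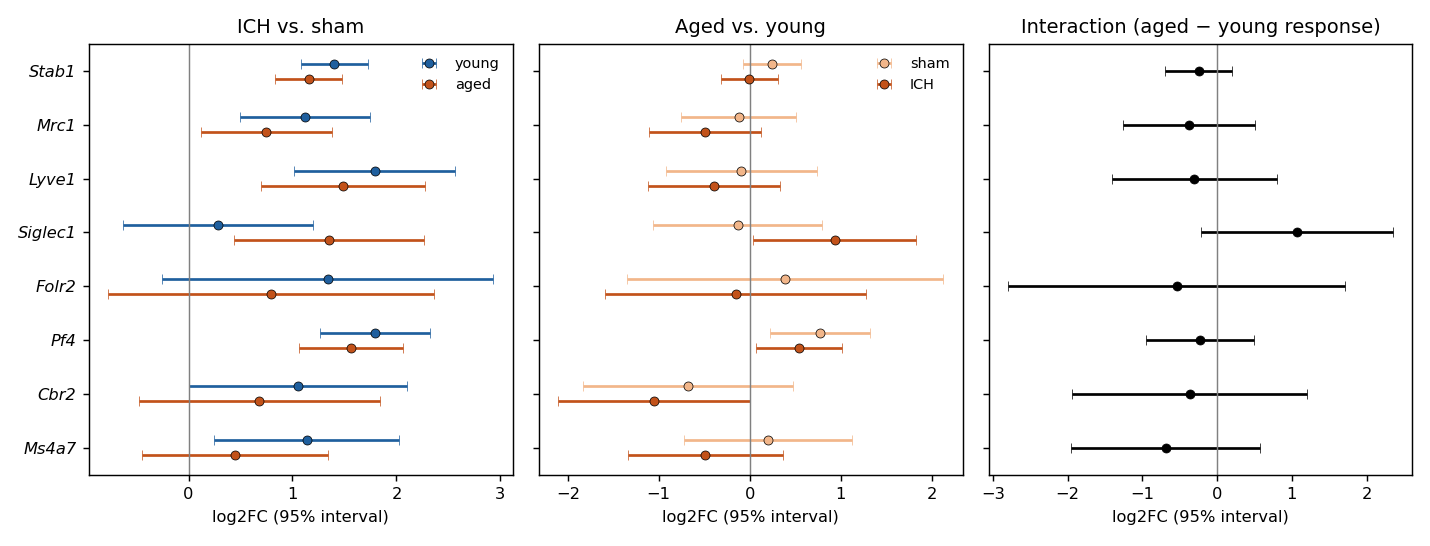
log2FC of the 8 genes with 95% intervals from edgeR's quasi-likelihood test. Panels show ICH compared with sham at each age, aged compared with young mice after sham surgery or ICH, and the interaction. All points are filled, whether or not the gene was called. For ICH compared with sham, the intervals of *Stab1*, *Pf4*, *Lyve1* and *Mrc1* lie above 0 at both ages. That of *Ms4a7* does so in young and that of *Siglec1* in aged mice, while the difference between the responses of *Siglec1* did not pass (adjusted *P* = 1).

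Of the 4 genes with an adjusted *P* under 0.05 in young mice, *Mrc1*, *Pf4* and *Stab1* had an entry among the RefSeq promoters (GRCm38.p6), and the sequence before their first annotated base is shown to give the letters around 2 short motifs. Entries were found for 6 of the 8 genes, with 8 start sites. Capitals mark GAGGAA or its reverse complement TTCCTC, the core bound by PU.1, a transcription factor that macrophages need for their development, and TGCTGA or its reverse complement TCAGCA, a site of MAF factors. Each sequence runs 5′ to 3′ on the strand of its gene.
Mrc1, chr2:14229164-14229391, plus strand: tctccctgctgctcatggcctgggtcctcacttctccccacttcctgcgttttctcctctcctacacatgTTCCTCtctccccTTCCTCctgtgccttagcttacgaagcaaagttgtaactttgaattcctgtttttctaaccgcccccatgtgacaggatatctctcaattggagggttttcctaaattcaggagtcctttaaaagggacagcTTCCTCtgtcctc
Pf4, chr5:90772185-90772434, plus strand: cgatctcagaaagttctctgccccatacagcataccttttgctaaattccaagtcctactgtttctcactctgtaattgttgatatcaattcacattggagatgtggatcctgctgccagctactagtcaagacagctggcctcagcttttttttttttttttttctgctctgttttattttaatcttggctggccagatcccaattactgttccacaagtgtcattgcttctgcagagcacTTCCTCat
Stab1, chr14:31168642-31168891, minus strand: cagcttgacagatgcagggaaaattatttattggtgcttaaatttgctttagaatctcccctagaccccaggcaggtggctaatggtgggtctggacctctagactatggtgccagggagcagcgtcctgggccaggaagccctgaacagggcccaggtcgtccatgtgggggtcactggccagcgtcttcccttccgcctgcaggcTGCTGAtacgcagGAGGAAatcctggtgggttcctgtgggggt
The *Mrc1* sequence holds 3 matches to the PU.1 core within 228 bases, all as TTCCTC. *Pf4* has 1 such match and *Stab1* has 1, next to 1 MAF site, in 250 bases each. Among the sequences not shown, those of *Ms4a7* held neither motif. Each of *Folr2* held 1 MAF site and no PU.1 core. That of *Cbr2* held neither motif in its 157 bases outside annotated exons and 1 PU.1 core in its full 250 bases. Over all 32817 promoters of 250 bases, 23.3% hold the PU.1 core and 16.1% the MAF site on either strand. The motifs can share their end letters and do not in the sequences shown. A match of this kind describes the letters and does not show binding.

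To evaluate the effect of age alone, the sham groups were compared. *Pf4* was upregulated in aged sham compared with young sham mice (log2FC 0.77 ± 0.25, FC 1.71, adjusted *P* = 0.268), and its groups did not overlap, as for 9.81% of all genes in that direction. It was the 1 gene of 8 called, where 2.82% of all genes were called upregulated and 0.898% downregulated. The call remained in each comparison with a single library left out, at a log2FC of 0.61 to 0.94, and it did not pass after adjustment, which 0.0884% of all genes did upward. For the others the log2FC ranged from -0.68 (*Cbr2*, adjusted *P* = 0.639) to 0.39 (*Folr2*, adjusted *P* = 0.882), and samples of both ages overlapped. *Folr2* passed without young sham replicate 1 (2.19), and *Cbr2* passed as downregulated without young sham replicate 3 (-1.06). *Mrc1* (-0.12, 95% interval -0.76 to 0.51), *Lyve1* (-0.09, interval -0.92 to 0.74) and *Siglec1* (-0.13, interval -1.06 to 0.796) had intervals on both sides of 0. The median over the 8 genes was 0.06, and that over all genes 0.01.

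Aged ICH and young ICH mice were then compared directly. *Siglec1* was the 1 gene called upregulated in aged ICH mice (log2FC 0.94 ± 0.41, FC 1.91, adjusted *P* = 0.504), against 2.21% of all genes, and none was called downregulated, against 1.3%. None passed upward after adjustment, as 0.0372% of all genes did. All aged samples were above all young samples for *Siglec1* and *Pf4*, as for 6.9% of all genes, and below them for *Mrc1*, as for 6.42%. The *Siglec1* call was lost without aged ICH replicate 1 (0.77), aged ICH replicate 3 (0.98), young ICH replicate 1 (0.80), young ICH replicate 2 (0.73) or young sham replicate 2 (0.94), and without the choroid-rich libraries (1.25, adjusted *P* = 0.74). *Pf4* was higher in all aged ICH than in all young ICH samples at a log2FC of 0.54 ± 0.22 (adjusted *P* = 0.46), below the FC limit, and it passed that limit without aged ICH replicate 2 (0.68), young ICH replicate 2 (0.585) or young ICH replicate 3 (0.65). *Cbr2* had the lowest estimate (log2FC -1.05 ± 0.48, adjusted *P* = 0.525), and its groups overlapped in 1 sample of each age. The estimate passed as downregulated without aged ICH replicate 2 (-1.34), young ICH replicate 2 (-1.30), aged sham replicate 1, young sham replicate 1 or young sham replicate 3 (each -1.05), and *Ms4a7* did so without young ICH replicate 2 (-0.81). The median log2FC of the 8 genes was -0.27. No gene of the list was called in the interaction by edgeR with the 4 groups as its terms, all samples and the filter on low counts, by DESeq2 or by limma, whereas *Siglec1* was called upward by edgeR without that filter (1.07), without aged sham replicate 1 (1.40) or without young ICH replicate 3 (1.48). By edgeR 0.484% of all genes passed upward and 1.08% downward at the unadjusted *P*, and no gene at all passed after adjustment. The 2 ICH comparisons do not share samples, whereas the interaction uses all 4 groups. Interaction estimates other than that of *Siglec1* ran from -0.69 (*Ms4a7*) to -0.23 (*Pf4*), with intervals that all crossed 0. *Folr2* passed downward without young sham replicate 1 (-2.35), the fit in which it was tested only through ICH samples.

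The 8 genes differed in level per transcript length. On the FPKM scale, the mean was highest for *Stab1* in every group, at 2.19 ± 0.47 in young sham, 6.17 ± 0.95 in young ICH, 2.68 ± 0.30 in aged sham and 6.25 ± 0.45 in aged ICH mice (SD, n = 3), and its lowest sample was above the highest of the next gene in each group. *Pf4* ranked next throughout, at 0.755 ± 0.176, 2.81 ± 0.51, 1.34 ± 0.22 and 4.16 ± 0.69 FPKM in the same order. *Pf4* could not be separated from *Mrc1* by their samples in the young groups and lay above it in the aged groups, where *Mrc1* had 0.710 ± 0.190 and 1.25 ± 0.14 FPKM. In both sham groups the order went on with *Mrc1*, *Cbr2*, *Siglec1*, *Lyve1*, *Ms4a7* and *Folr2*, and neighbors in that order overlapped except *Lyve1* and *Ms4a7* in young sham and *Pf4* and *Mrc1* in aged sham samples. After ICH *Lyve1* had rank 5 at both ages, with 1.21 ± 0.63 FPKM in young and 0.938 ± 0.121 FPKM in aged mice, while *Siglec1* had rank 6 in young (0.508 ± 0.231) and rank 4 in aged mice (0.982 ± 0.185). *Folr2* and *Ms4a7* were lowest in each group, between 0.106 and 0.357 FPKM on average.

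Summed over the 8 genes, the level was 29.7 to 42.6 CPM in young sham and 35.8 to 42.6 CPM in aged sham samples. It was 74 to 99.6 CPM in young ICH and 77.9 to 88.2 CPM in aged ICH samples. *Stab1* alone made up 67.8 to 73.5% of that sum on average in a group, so the sum mostly follows *Stab1*. The other 7 genes together measured 9.14 to 13.2 CPM in young sham, 20.4 to 28.3 CPM in young ICH, 10.0 to 11.7 CPM in aged sham and 21.0 to 23.6 CPM in aged ICH samples, and they too separated sham from ICH at each age. Across the 12 samples the 28 pairs of genes had a median Pearson correlation of log2 CPM of 0.55, between -0.08 and 0.93. These samples share the 4 groups. After the group means were removed, the median was 0.17, between -0.68 and 0.72.

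For each gene, the 3 other genes with the most similar log2 CPM over the 12 samples were listed among 16576 candidates with a mean of at least 1 CPM. *Stab1* was closest to *Emp3* (Pearson r = 0.98), *Cdh5* (0.98), which encodes the cadherin of endothelial junctions, and *Akap12* (0.98). *Siglec1* was closest to *Phf11b* (0.96), *Zbp1* (0.96), a sensor of left-handed nucleic acid, and *Irf7* (0.96), the interferon regulatory factor of the type I response. Nearest to *Pf4* were *Syt15*, *Mmp9*, a matrix-degrading protease, and *Agpat2* (each 0.97). Values for *Mrc1* included 0.95 (*Thbs3*) and 0.95 (*Sardh*), and those for *Lyve1* included 0.97 (*Tor1b*) and 0.94 (*Dse*). *Folr2* was nearest to *Ttc12* (0.95), *Bcam* (0.94) and *Lamb2* (0.94), *Cbr2* to *Eln* (0.92), which encodes elastin, *Ackr3* (0.89) and *9930012K11Rik* (0.88), and *Ms4a7* to *Ptpn22* (0.90), *Gm4459* (0.89) and *Cbx1* (0.89). The points share groups and libraries, and such values are the highest of many candidates.

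A second list held 20 further genes described in border macrophages, of which 16 were tested. *Cd209b*, *Cd209d*, *Cd209g* and *Ccl24* had too few counts. In young mice 6 of the 16 were upregulated after ICH and none downregulated, all 6 with an adjusted *P* under 0.05, where 8.66% of all genes were called upregulated. These were *Clec4n* (dectin-2, a fungal glycan receptor; log2FC 2.48), *F13a1* (the A subunit of coagulation factor XIII; 2.34), *Wfdc17* (2.19), *Dab2* (an endocytic adaptor; 1.67), *Clec10a* (a galactose-type lectin; 1.64) and *Cd36* (a receptor for fatty acids and oxidized lipoproteins; 1.58). *F13a1* rose from 3.18 ± 1.41 to 16.2 ± 2.4 CPM and *Dab2* from 17.5 ± 2.6 to 55.7 ± 14.3 CPM (SD, n = 3). In aged mice 5 of the 16 were upregulated, against 7.24% of all genes, all after adjustment as well, namely *Clec4n* (2.31), *Wfdc17* (2.15), *Cd36* (1.97), *F13a1* (1.72) and *Dab2* (1.65), and 1 was downregulated, against 2.82% of all genes. That gene was *Cd163*, the receptor for haptoglobin-bound hemoglobin (log2FC -0.75, adjusted *P* = 0.164), from 5.13 ± 1.26 to 3.07 ± 1.36 CPM. Its call was lost without any 1 of aged ICH replicates 1 and 3, aged sham replicates 1 and 2, the 3 young ICH samples and young sham replicate 2, at a log2FC of -0.83 to -0.48, and without the choroid-rich libraries (-0.85, adjusted *P* = 0.292). In young mice *Cd163* had a log2FC of -0.29 and did not pass. The median log2FC was 0.58 in young and 0.39 in aged mice. *Fcna*, *Colec12*, *Mgl2*, *Maf*, *Gas6*, *Lilra5*, *Cd209a*, *Cd209f* and *Ccl8* passed at neither age.

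**Figure D3:**
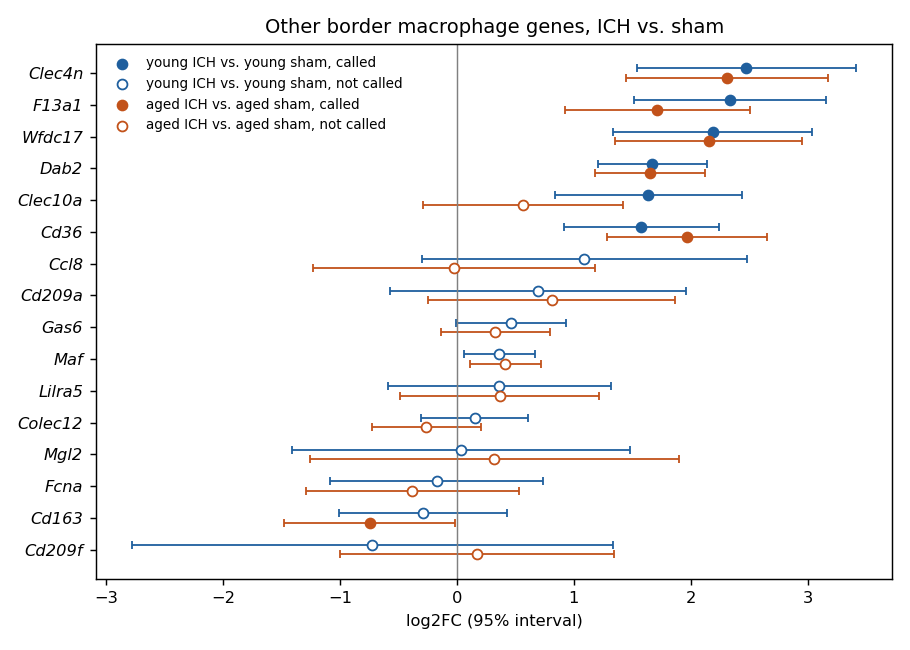
log2FC after ICH with 95% intervals for the 16 tested genes of the second list, in young and in aged mice; filled points passed the FC and unadjusted *P* criterion. *Clec4n*, *F13a1*, *Wfdc17*, *Dab2* and *Cd36* are filled above 0 at both ages, *Clec10a* in young mice, and *Cd163* below 0 in aged mice.

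With age, 3 of the 16 genes of the second list were upregulated in sham mice, against 2.82% of all genes, namely *Cd209f* (a C-type lectin; log2FC 2.04, adjusted *P* = 0.277), *Ccl8* (a chemokine; 1.46, adjusted *P* = 0.376) and *Clec4n* (1.04, adjusted *P* = 0.381). *Cd209f* was at 0.0676 ± 0.0611 CPM in young and 0.304 ± 0.179 CPM in aged sham mice, close to the counting limit, and lost its call without aged sham replicate 2 (1.48). *Ccl8* lost its call without aged sham replicate 2 (0.97), young sham replicate 2 (1.35) or young sham replicate 3 (1.08), and without the choroid-rich libraries (1.45, adjusted *P* = 0.395). *Clec4n* lost its call without aged sham replicate 3 (0.44) or without any 1 of the young sham samples (0.97 to 1.13). Between the ICH groups, *Cd209f* (2.93, adjusted *P* = 0.228), *Cd209a* (1.198, adjusted *P* = 0.482) and *Clec4n* (0.88, adjusted *P* = 0.482) were called higher in aged mice, against 2.21% of all genes. *Clec10a* was called lower in aged ICH mice, against 1.3% of all genes (log2FC -1.13, adjusted *P* = 0.343), at 0.687 ± 0.140 CPM compared with 1.502 ± 0.359 CPM. *Cd209a* lost its call without aged ICH replicate 2 or 3 or young ICH replicate 1 or 2 (0.92 to 1.17) and without the choroid-rich libraries (1.69, adjusted *P* = 0.75), and *Clec4n* without aged ICH replicate 3 or young ICH replicate 1 or 2 (0.67 to 0.71). The calls of *Cd209f* and *Clec10a* between the ICH groups remained in all 12 fits with 1 library left out. *Cd209f* had 0 to 3 counts per sample in young ICH and 1 to 5 in young sham mice, against 10 to 12 in aged ICH and 5 to 15 in aged sham mice. It thus had enough counts to be tested only through its aged samples, and leaving out single libraries cannot remove that dependence. The interaction of *Clec10a* was -1.07 (95% interval -2.25 to 0.10, adjusted *P* = 1) and did not pass, and no gene of the second list was called in it.

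Markers of other cells moved with the 8 genes to different degrees, and their part in the results was not tested. For every list below, the shares of all genes called after ICH were 8.66% upregulated and 3.49% downregulated in young mice. In aged mice they were 7.24% and 2.82%. Of 8 genes that all macrophages and microglia express, 4 were upregulated at each age, and their sum was 197 to 225 CPM in young sham, 236 to 275 CPM in young ICH, 193 to 226 CPM in aged sham and 272 to 296 CPM in aged ICH samples. *Csf1r*, the receptor on which these cells depend, had a log2FC of 0.09 in young and 0.18 in aged mice, below the FC limit, and *Cd68*, a lysosomal protein, rose by 0.92 and 0.85. Homeostatic microglia genes summed to 306 to 375, 304 to 358, 342 to 368 and 315 to 365 CPM in the same order, with 0 of 10 upregulated and 3 downregulated at each age. Of 10 blood monocyte genes 7 were upregulated at each age. These include *Ms4a8a*, with 2 to 6 counts in young sham and 0 to 10 in aged sham samples. It had 17 to 22 and 13 to 22 counts after ICH, so it was tested through its ICH samples. The sum of the 10 was 41.2 to 46.8 CPM in young sham and 109 to 147 CPM in young ICH samples. In aged mice it was 33.5 to 60.7 CPM after sham surgery and 165 to 220 CPM after ICH. Most of that rise was *Thbs1*, which encodes thrombospondin-1 and is not limited to monocytes, from 3.24 to 63.3 CPM on average in young and from 9.55 to 113 CPM in aged mice, while *Vcan*, the highest of the list in sham mice, was not called at either age. Neutrophil genes had 6 of 8 tested upregulated at each age, with sums of 10.2 to 12.7, 19.8 to 36.2, 14.6 to 26.1 and 37.1 to 52.9 CPM.

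For *Pf4*, the 10 platelet genes summed to 5.17 to 6.53 CPM in young sham, 7.26 to 9.92 CPM in young ICH, 6.49 to 6.85 CPM in aged sham and 8.29 to 12.4 CPM in aged ICH samples. Only 5 of them had enough counts to be tested, and 2 of the 5, *Ppbp* and *Itga2b*, were upregulated at each age. *Ppbp* did not pass after adjustment in aged mice (log2FC 1.70, adjusted *P* = 0.126). It had 0 to 1 counts per sample in young sham and 0 to 10 in aged sham mice, against 8 to 15 and 12 to 19 after ICH, so it was tested through its ICH samples. *Ppbp*, a chemokine stored with *Pf4* in platelet granules, was at 0.0216, 0.338, 0.134 and 0.457 CPM on average in the same order. *Gp6* was listed at 0 in both young groups and *Gp1bb* in 3 of the 4 groups. For *Stab1* and *Lyve1*, the lymphatic endothelial list summed to 130 to 154 CPM in young sham, 113 to 151 CPM in young ICH, 140 to 142 CPM in aged sham and 119 to 147 CPM in aged ICH samples. Of its 5 tested genes 2 were upregulated and 1 downregulated in young mice, and 1 each way in aged mice. *Prox1*, *Pdpn* and *Reln* of this list are also known from neural cells, and *Reln* was the downregulated gene at both ages. *Flt4*, the receptor VEGFR3 of lymphatic endothelium, averaged 6.35 CPM in young sham and 11.9 CPM in young ICH samples, which did not overlap (log2FC 0.90, adjusted *P* = 0.0132). In aged mice *Flt4* averaged 8.38 CPM after sham surgery and 11.2 CPM after ICH and was not called (0.42, adjusted *P* = 0.212). *Pdpn* was upregulated at both ages, *Ccl21a* was at 0 in all 12 libraries, and *Mmrn1* was at 0.00998 to 0.0584 CPM on average. Blood endothelial genes, of which 4 of 8 were upregulated in young and 2 in aged mice, summed to 323 to 388, 441 to 454, 353 to 402 and 403 to 481 CPM in the order above. Fibroblast genes summed to 170 to 227, 202 to 276, 187 to 273 and 216 to 249 CPM, with 2 of 8 upregulated in young and 1 in aged mice. None of the 8 choroid plexus genes was called in young mice and 3 were upregulated in aged mice, and none of the 8 striatal neuron genes was called.

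**Figure D4:**
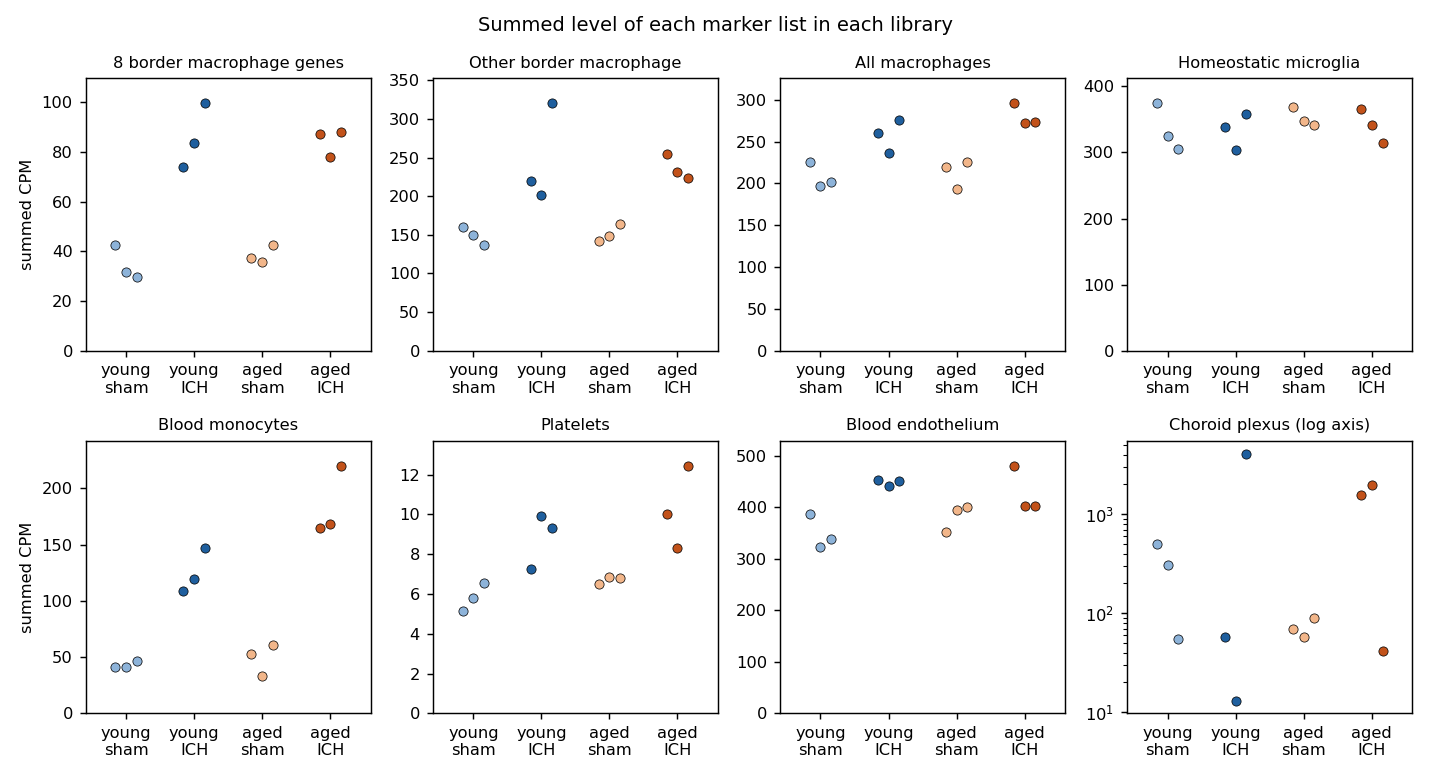
Summed CPM of the 8 genes and of 7 marker lists in the 12 libraries, by group; points are samples, and the choroid plexus panel has a log axis while the others are linear from 0. The 8 genes separate sham from ICH samples at each age. So do the other border macrophage, all-macrophage, blood monocyte, platelet and blood endothelial lists. The endothelial list does so narrowly in aged mice (highest sham 402 CPM, lowest ICH 403 CPM). The largest part of the other border macrophage sum is *Gas6*, which was called at neither age. *Gas6* averaged 81.9 CPM in young sham, 113 in young ICH, 77.7 in aged sham and 97.7 in aged ICH samples. The homeostatic microglia list overlaps in all 4 groups, and 3 ICH libraries exceed 1000 CPM of choroid plexus genes.

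Without the 3 choroid-rich libraries, genes called in all samples had these log2FC in young mice: *Stab1* 1.29, *Pf4* 1.685, *Lyve1* 1.99, *Mrc1* 0.91 and *Ms4a7* 0.93. In aged mice they were 1.24 (*Stab1*), 1.67 (*Pf4*), 1.38 (*Lyve1*), 0.86 (*Mrc1*) and 1.25 (*Siglec1*). The median over all genes was 0.009 in young and 0.001 in aged mice. The calls of *Ms4a7* in young and of *Mrc1* in aged mice were lost. After adjustment *Mrc1* no longer passed in young mice (adjusted *P* = 0.0992) and *Lyve1* no longer passed in aged mice (log2FC 1.38, adjusted *P* = 0.156), where *Siglec1* had an adjusted *P* of 0.221. Genes of the second list called upregulated in all samples had log2FC of 1.25 (*Cd36*) to 2.31 (*F13a1*) in young mice. In aged mice theirs were 1.65 (*Dab2*) to 2.67 (*Clec4n*). *Siglec1* in young mice went from a log2FC of 0.28 to -0.13, and *Folr2* in aged mice from 0.79 to -0.31, with neither called in any of these fits. Between the ICH groups the log2FC of *Pf4* became 0.76, where the median over all genes was -0.002.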

How the data were processed

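RNA-seq of 12 samples, each from several pooled mice, was used, with groups and replicate numbers from the labels. The authors aligned reads to GRCm38.p6 with Hisat2, counted them with FeatureCounts and deposited raw counts and FPKM per gene, FPKM being scaled to transcript length and mapped fragments. Settings for strand and for reads with several alignments are not given in the sources used here. Columns of the authors' own comparisons were not used.

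Counts were tested with edgeR 4.0.16 (limma 3.58.1, R 4.3.3): quasi-likelihood fits, TMM, 4 groups in 1 fit, filterByExpr with a minimum count of 10. Standard errors are the absolute log2FC over the square root of F. Correlations used log2 CPM with a prior count of 2. Replicates are pools, so *P* values measure the spread between pools. The genes, lists and tests were chosen with earlier results of these data known. Genes named are the 8, those of the marker lists, and the 3 nearest to each, of which some are not reported here. Positions are from GENCODE vM21. Statistics were tested on simulated data. Alternatives were DESeq2 1.42.0, RLE factors, no filter, only the groups compared, adjusted *P*, limma on log2(FPKM + 1), a replicate block and leaving out libraries. The depth was 28410896 to 37785160 counts per sample.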

Additional observations from a re-analysis of the deposited data

How the results depend on the processing

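The calls of *Stab1*, *Pf4* and *Lyve1* after ICH at both ages remained in every fit with 1 library left out. So did those of *Mrc1* in young and of *Siglec1* in aged mice. These calls rest on the unadjusted *P*. The highest adjusted *P* in these fits was 0.0866 for *Lyve1* in aged, 0.0727 for *Mrc1* in young and 0.178 for *Siglec1* in aged mice. With an adjusted *P* under 0.05 as the criterion, 3 of the 8 genes were upregulated after ICH in aged mice, against 7% of all genes. It left 0 upregulated with age in sham, against 0.0884%, and 0 between the ICH groups, against 0.0372%. In the second list 0 were upregulated with age in sham, 0 up and 0 down between the ICH groups and 0 down after ICH in aged mice. Of all genes, 0.0186% passed downward between the ICH groups and 6.15% after ICH in aged mice. Limma on log2(FPKM + 1) shrinks the fold change of low genes by construction. It called 2 of the 8 after ICH in aged mice, 0 with age in sham and 0 between the ICH groups. In the second list it called 0 with age in sham, 0 down after ICH in aged mice, and 1 up and 0 down between the ICH groups. Of all genes it called 3.3% up after ICH in aged mice, 0.554% with age in sham and 0.675% between the ICH groups. Downward it called 0.647% after ICH in aged mice and 0.177% between the ICH groups. Under it the log2FC of *Stab1* between the ICH groups (0.023) and the interaction of *Pf4* (0.023) changed sign. DESeq2, RLE factors, no filter and the fit of only the groups compared each called 1 of the 8, *Cbr2*, downregulated between the ICH groups. Of all genes they called 1.12, 1.34, 1.21 and 1.09% downregulated there, in that order. Without a filter the second list had 5 upregulated between the ICH groups, against 2% of all genes. In the interaction 1 of the 8 was then called upregulated, against 0.847% of all genes. The fit of only the groups compared called 0 of the second list downregulated after ICH in aged mice, against 2.61% of all genes. Without the choroid-rich libraries *Cd163* lost its call there, at a log2FC of -0.85. Without those libraries *Siglec1* in young mice (-0.13), *Folr2* in aged mice (-0.31), and *Ms4a7* (0.13) and *Stab1* (0.19) between the ICH groups changed sign.

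With 1 library left out, the number of the 8 upregulated was 4 to 6 after ICH in young, 4 to 5 in aged, 1 to 2 with age in sham, 0 to 2 between the ICH groups and 0 to 1 in the interaction, and downregulated 0 to 1 with age in sham, 0 to 2 between the ICH groups and 0 to 1 in the interaction. In the second list 1 to 5 were up with age in sham, and 1 to 4 up and 1 to 2 down between the ICH groups. It had 0 to 1 down after ICH in aged mice and 0 to 2 down in the interaction. Of all genes, 7.12 to 9.98% were up after ICH in young mice. In aged mice 5.44 to 7.7% were up and 2.05 to 4.98% down. With age in sham 2.14 to 3.2% were up and 0.73 to 1.32% down. Between the ICH groups 1.67 to 3.36% were up and 1.09 to 2.04% down. In the interaction 0.476 to 1.18% were up and 0.873 to 1.83% down. The log2FC with age in sham spanned 0 for *Mrc1* (-0.38 to 0.22), *Lyve1* (-0.28 to 0.13), *Ms4a7* (-0.065 to 0.42), *Siglec1* (-0.47 to 0.25) and *Folr2* (-0.059 to 2.19). It did so for *Siglec1* after ICH in young mice (-0.13 to 0.55), for *Folr2* (-0.45 to 0.56), *Lyve1* (-0.60 to 0.13) and *Stab1* (-0.10 to 0.11) between the ICH groups, and in the interaction for *Lyve1* (-0.52 to 0.22), *Folr2* (-2.35 to 0.17) and *Cbr2* (-0.77 to 0.013). The cause was not tested.

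The replicate numbers did not pair the samples. Deviations from group means had a median correlation of -0.04 over 18 pairs with the same number and 0.01 over 36 other pairs, and 1 of 12 samples correlated best with its own number. With a replicate block, the number of the 8 upregulated in the interaction was 1, *Siglec1* at 1.21 (adjusted *P* = 1), against 0.54% of all genes. *Ccl8* with age in sham (1.47, adjusted *P* = 0.451) and *Cd209a* between the ICH groups (1.198, adjusted *P* = 0.564) then no longer passed. *Folr2* had 1 to 26 counts per sample, and its spread between pools was above counting error in 3 of the 4 groups.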
